A study of Mus musculus with 6 samples.

Results

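Open chromatin at 8 genes of ETS transcription factors was compared between blood monocytes of thrombocytopenic and control mice. The genes were Erg, Fli1, Ets1, Ets2, Etv6, Elf1, Elf2 and Gabpa, chosen by name out of 21900 protein-coding genes. A locus is the gene body in the GRCm38 gene table with 10 kb added on each side, and the loci held 148 of the 92757 regions obtained by merging the peaks of all libraries. The set was proposed because earlier results of the same data had shown peaks of only 1 group at Erg and Fli1. Comparisons between the groups at these loci are therefore descriptions, with no test.

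The data are ATAC-seq peaks, which mark DNA accessible to the Tn5 transposase, from 3 libraries of PF4cre-iDTR mice (DTR) and 3 of wild-type mice (WT). Both groups had been given diphtheria toxin. In PF4cre-iDTR mice Cre is driven by the promoter of Pf4, a megakaryocyte and platelet chemokine gene, and switches on the toxin receptor in cells that have expressed it, so the toxin depletes platelets. The sources used here do not give the strain, age or sex of the mice, or whether a library came from 1 animal or a pool, so an SD measures only the spread between these libraries, which may be technical.

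ETS factors share a DNA-binding domain that recognises a GGAA core, and differ in flanking bases, partners and the cells that express them. ERG and FLI1 are close relatives: ERG maintains haematopoietic stem cells, and FLI1 is in addition required for megakaryocyte maturation. ETS1 is best known from lymphocytes, ETS2 as a target of Ras and MAP kinase signalling, and ETV6 as a repressor needed by stem cells and for normal platelet production. ELF1 and ELF2 are widely expressed in blood cells, and GABPA, which acts with GABPB, controls many housekeeping and mitochondrial genes.

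The promoter sequences below show which listed starts lay under open chromatin. RefSeq (GRCm38.p6) lists 10 promoter windows for 6 of the 8 genes, each from 250 bases before to 50 bases after a start, and Fli1 and Ets1 had no entry. All 7 windows of Ets2, Etv6, Elf1, Elf2 and Gabpa lay under a region with a peak in all 6 libraries, and 0 of the 3 windows of Erg did. Over all genes, 42.5% of 32851 windows lay under such a region. The windows of 3 open starts and of the innermost and outermost starts of Erg are printed 5′ to 3′, with each GGAA, or TTCC where it is read on the other strand, in capitals.
Gabpa (chr16:84834874-84835173, plus strand): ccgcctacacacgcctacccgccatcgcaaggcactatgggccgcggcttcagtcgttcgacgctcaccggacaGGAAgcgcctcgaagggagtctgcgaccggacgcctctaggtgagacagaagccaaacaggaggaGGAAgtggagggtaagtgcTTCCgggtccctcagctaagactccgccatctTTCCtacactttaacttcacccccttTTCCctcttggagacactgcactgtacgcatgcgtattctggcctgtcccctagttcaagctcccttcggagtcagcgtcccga
Elf2, internal start (chr3:51277465-51277764, minus strand): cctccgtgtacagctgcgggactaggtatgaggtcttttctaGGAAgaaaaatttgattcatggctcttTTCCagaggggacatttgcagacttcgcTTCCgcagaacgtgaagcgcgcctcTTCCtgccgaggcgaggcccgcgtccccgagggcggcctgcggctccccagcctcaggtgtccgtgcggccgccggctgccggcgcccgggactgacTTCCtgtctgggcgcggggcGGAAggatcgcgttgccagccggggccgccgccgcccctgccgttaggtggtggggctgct
Etv6 (chr6:134035450-134035749, plus strand): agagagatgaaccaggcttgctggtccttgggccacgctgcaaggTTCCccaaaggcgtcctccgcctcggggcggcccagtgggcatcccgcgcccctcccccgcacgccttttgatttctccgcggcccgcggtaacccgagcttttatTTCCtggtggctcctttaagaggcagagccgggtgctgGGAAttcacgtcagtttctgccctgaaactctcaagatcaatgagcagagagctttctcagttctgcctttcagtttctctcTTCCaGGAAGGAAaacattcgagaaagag
Erg, most internal start (chr16:95459299-95459598, minus strand): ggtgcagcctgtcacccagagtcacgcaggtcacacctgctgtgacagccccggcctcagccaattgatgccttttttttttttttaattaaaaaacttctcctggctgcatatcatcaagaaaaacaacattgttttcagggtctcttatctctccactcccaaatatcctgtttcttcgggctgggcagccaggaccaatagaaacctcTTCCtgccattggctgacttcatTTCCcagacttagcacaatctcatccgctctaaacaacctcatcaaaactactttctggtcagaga
Erg, outermost start (chr16:95586544-95586843, minus strand): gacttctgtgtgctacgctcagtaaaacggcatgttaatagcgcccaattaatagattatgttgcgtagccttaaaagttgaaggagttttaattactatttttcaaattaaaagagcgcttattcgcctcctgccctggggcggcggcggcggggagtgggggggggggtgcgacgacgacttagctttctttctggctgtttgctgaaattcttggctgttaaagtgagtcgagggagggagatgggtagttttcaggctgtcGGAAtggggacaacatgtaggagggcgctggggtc
Motifs were searched on both strands, and the 2 longer ETS motifs that follow contain GGAA. The core GGAA was in all 10 windows, as in 96.0% of all windows, so its presence does not set them apart. CCGGAA, the form GABPA prefers, was found in the Gabpa window alone, and 14.9% of all windows hold it. The form preferred by PU.1, GAGGAA, was found in that same window alone, against 28.3% of all windows. A GATA motif, AGATAA, was in the window of the most internal Erg start, as in 11.2% of all windows. A RUNX motif, TGTGGT, was in 0 of the 10, against 16.8% of all windows. These matches are letters in a window and not evidence of binding.

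The libraries differed in the length of their lists. DTR lists held 81567 to 84029 peaks and WT lists 77867 to 80475, and the median fold over regions shared by all libraries was 5.76 to 5.92 in DTR and 5.66 to 5.79 in WT. Fold is the authors' enrichment of a peak over the peak caller's background. Read depth is unknown, so a missing peak may also be a peak below detection. In bulk libraries, a larger share of one cell type and more open DNA per cell cannot be told apart. A gene-end peak, within 1 kb of either end, was found in all 6 libraries for 59.0% of the 21900 protein-coding genes. Among the monocyte markers, 10 of 10 had one in all 6 libraries. This was so for 4 of 10 megakaryocyte and platelet, 6 of 7 stem and progenitor, 4 of 6 erythroid, 4 of 6 B cell, 2 of 7 T and NK cell, 1 of 6 neutrophil, 1 of 6 endothelial and 0 of 5 basophil and mast cell markers. Peaks at the 10 megakaryocyte and platelet loci numbered 38 to 40 in DTR and 36 to 41 in WT, with Treml1 at 0 in each. Summed covered length at the megakaryocyte and platelet loci overlapped, with 27156 to 28245 bp in DTR and 25757 to 28284 bp in WT, as it did at the stem and progenitor loci, with 30323 to 33689 and 27453 to 30821 bp. At the monocyte loci it was higher in every DTR library, with 59296 to 61784 against 54046 to 57692 bp. The whole lists also covered more in every DTR library, with 48.1 to 50.1 against 43.8 to 47.7 Mb. These sums were not scaled to that total, so nothing particular to monocyte loci is read from them. None of these marker loci held a group-only region, and the part of other cells in the values at the ETS genes was not tested.

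Over the 8 loci together, the groups overlapped in the number of peaks. The DTR libraries had 135, 137 and 128 peaks and the WT libraries 121, 130 and 132, with means of 133.3 ± 4.73 and 127.7 ± 5.86 (SD, n = 3). Length under peaks was 88692, 82291 and 86026 bp in DTR and 80887, 75817 and 82116 bp in WT, so every DTR value lay above every WT value, the closest pair 82291 and 82116 bp. As a share of each list the difference disappeared: the loci held 16.2 ± 0.562 of every 10000 peaks in DTR and 16.2 ± 0.634 in WT, and of the covered bases 1732 ± 33.4 ppm in DTR and 1732 ± 35.7 ppm in WT (SD, n = 3). Of the 148 regions, 113 (76.4%) had a peak in all 6 libraries, near the 74.1% of all regions. Among the 35 others, 21 had a peak in more DTR than WT libraries and 11 the reverse, or 60.0% and 31.4%, against 58.2% and 25.1% of all such regions.

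**Figure D1:**
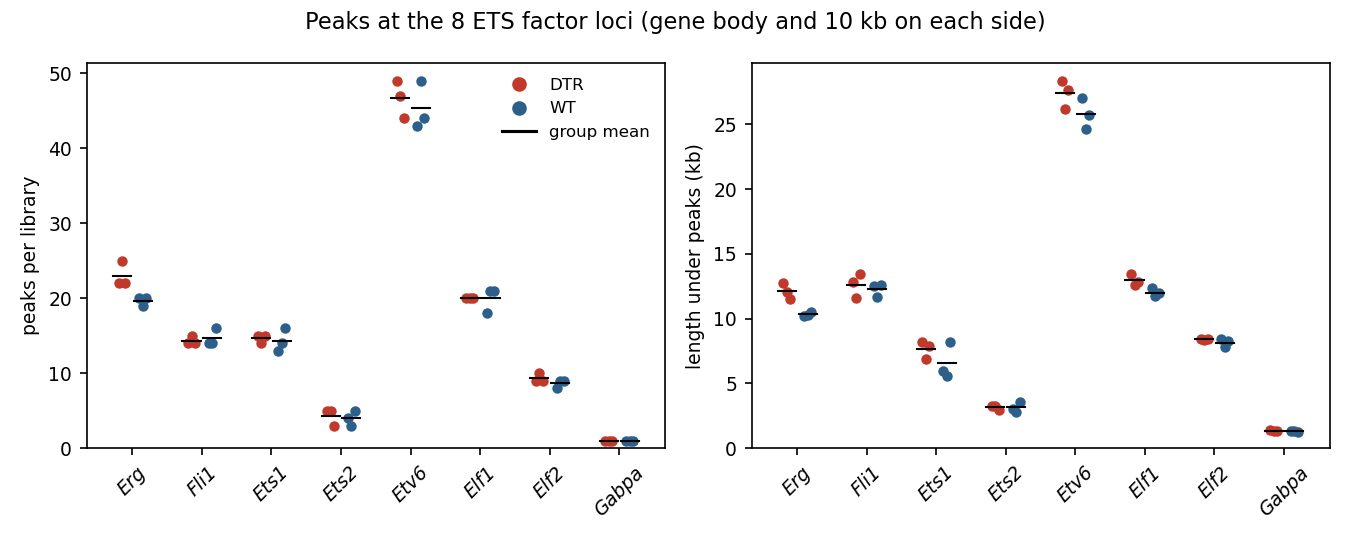
Number of peaks (left) and length under peaks in kb (right) at each locus; each point is 1 library, DTR in red and WT in blue, and black lines are group means. Erg is the locus where the DTR points (22, 25 and 22 peaks) lie above the WT points (20, 19 and 20) in both panels, and the groups overlap in number of peaks at the other loci.

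Erg, the stem cell factor, had more peaks in every DTR library than in any WT library. The DTR libraries had 22, 25 and 22 peaks and the WT libraries 20, 19 and 20, a difference of 3.33 between the means (23.0 ± 1.73 and 19.7 ± 0.577, SD, n = 3). Erg was the 1 of 8 genes with such a separation, which 2.99% of the 16831 protein-coding loci with a region showed, while the reverse was seen at 0 of 8 genes and at 0.345% of loci. Because Erg was chosen for this contrast, nothing is read from the comparison. Length under peaks was 12731, 12090 and 11531 bp in DTR and 10239, 10295 and 10529 bp in WT. Every DTR value of this measure was above every WT value at 2 of the 8 genes, Erg and Elf1, and at 19.5% of loci, and the reverse held at 0 of 8 and at 0.844%. Per 10000 peaks of its list, Erg had 2.62, 3.06 and 2.70 in DTR and 2.56, 2.44 and 2.49 in WT, which did not overlap. On that scale Gabpa, with 1 peak in each library, was separated the other way, at 0.119 to 0.123 against 0.124 to 0.128. The share of all loci separated on this scale was not computed, so nothing is read from it. With each list reduced to the same number of its strongest peaks, the separation at Erg was lost: DTR libraries then had 19, 21 and 20 peaks and WT libraries 20, 19 and 19. Covered length at Erg then overlapped too, with 10025 to 10356 bp in DTR and 10209 to 10295 bp in WT, and it overlapped as a share of the covered bases, with 230.1 to 254.2 ppm in DTR and 214.8 to 234.8 ppm in WT. ERG is also expressed in endothelial cells. At the endothelial marker loci covered length was higher in every DTR library (14001 to 14568 bp against 10929 to 13734 bp). So was the total length covered by each list, at 48.1 to 50.1 Mb in DTR and 43.8 to 47.7 Mb in WT. The endothelial values were not scaled to that total. Pecam1 was separated in peaks and length and Cdh5 in length, beside 2.99% of loci in peaks and 19.5% in length. Pecam1 alone held 14 peaks in each DTR library and 12 to 13 in WT, of 22 to 23 and 20 to 22 at the endothelial loci. Kdr had 4 peaks in every library and overlapped in length. Tek, Emcn and Sox17 of the endothelial markers had 0 peaks in every library. The part of endothelial cells in the values at Erg was not tested.

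Most open regions of Erg lay downstream of its most internal listed start, and so downstream of all 3 listed starts. Their positions do not tie them to 1 start. The most internal start had 23 of the 25 regions on its downstream side, 18 of them within 50 kb. The 127 kb between the most internal and the outermost start held the other 2. The nearest region lay 55150 bp from the middle start, 654 bp from the outermost and 125 bp from the most internal one. In the 50 kb downstream of the most internal start the libraries had 16, 18 and 17 peaks in DTR and 15, 14 and 15 in WT. Because the gene table gives no exons, regions are placed only in the gene body, at a gene end or in the flank.

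**Figure D2:**
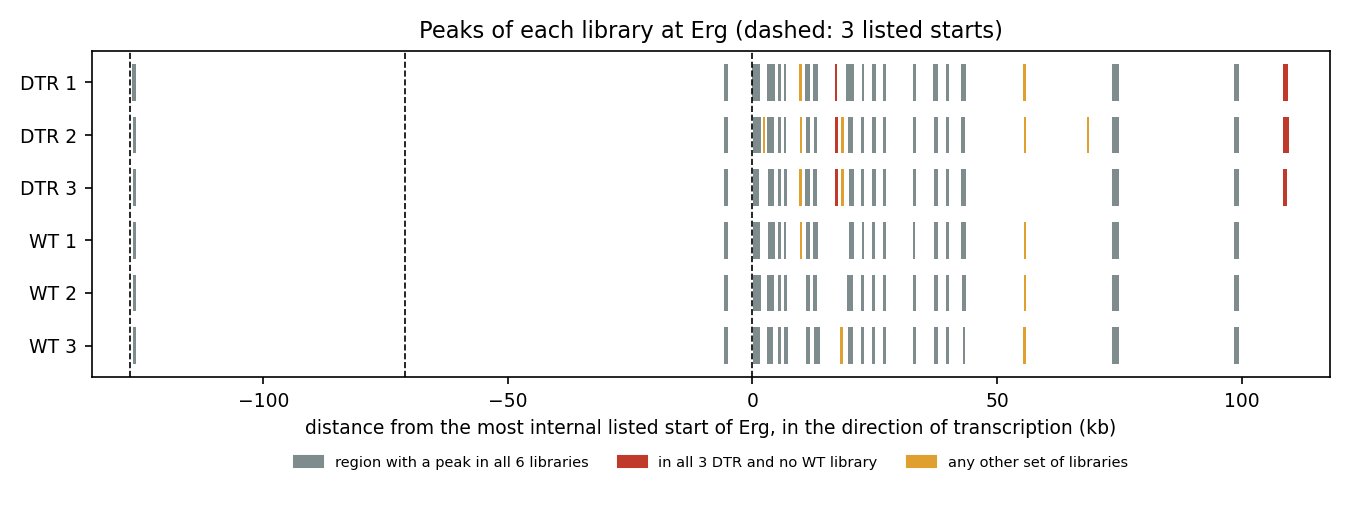
Peaks of each library at Erg, one row per library, against the distance in kb from the most internal listed start in the direction of transcription; bars are slightly widened to be visible and dashed lines are the 3 listed starts. Most regions lie downstream of the start at 0, and the 2 red regions are DTR-only.

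Erg had 2 DTR-only regions, with a peak in each DTR library and none in WT. One lay in the flank beyond the 3′ end (chromosome 16, 95349914 to 95350755), with folds of 3.54, 3.73 and 3.70 and peaks of 674, 833 and 515 bp. At 842 bp it was wider than 74.1% of all regions. Another lay in the gene body, 17044 bp downstream of the most internal start (95442038 to 95442304), with folds of 3.38, 3.24 and 2.58. The first ranked above 22.2% to 24.4% of the peaks of its list by fold, and the second above 6.26% to 19.5%. Both kept this pattern after the lists were reduced to the same length, and the first alone kept it at a q of at most 1e-05.

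The strongest shared region of Erg was also the one that differed most between the groups. It lay in the gene body 5202 bp upstream of the most internal start (95464550 to 95465009). Its folds were 9.01, 7.51 and 7.69 in DTR and 6.35, 6.25 and 6.04 in WT, a ratio of means of 1.3. Every DTR value was above every WT value, and its width under peaks did not differ in this way (415, 398 and 413 bp against 412, 413 and 403 bp). In the other direction, the region next to that start (95457676 to 95459223), at 1548 bp the widest shared region of Erg, had folds of 2.72, 2.65 and 2.64 in DTR and 2.97, 2.95 and 3.15 in WT. Another separated region, 3119 bp downstream of the start (95454876 to 95456229), had mean folds of 2.28 ± 0.0687 in DTR and 2.4 ± 0.0484 in WT (SD, n = 3). Of the 18 shared regions of Erg, 1 thus had every DTR fold above every WT fold and 2 the reverse, beside 10.4% and 5.15% of all shared regions. That is close to the background, and nothing particular to Erg is read from it. All 3 kept these separations after each fold was divided by its library's median.

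**Figure D3:**
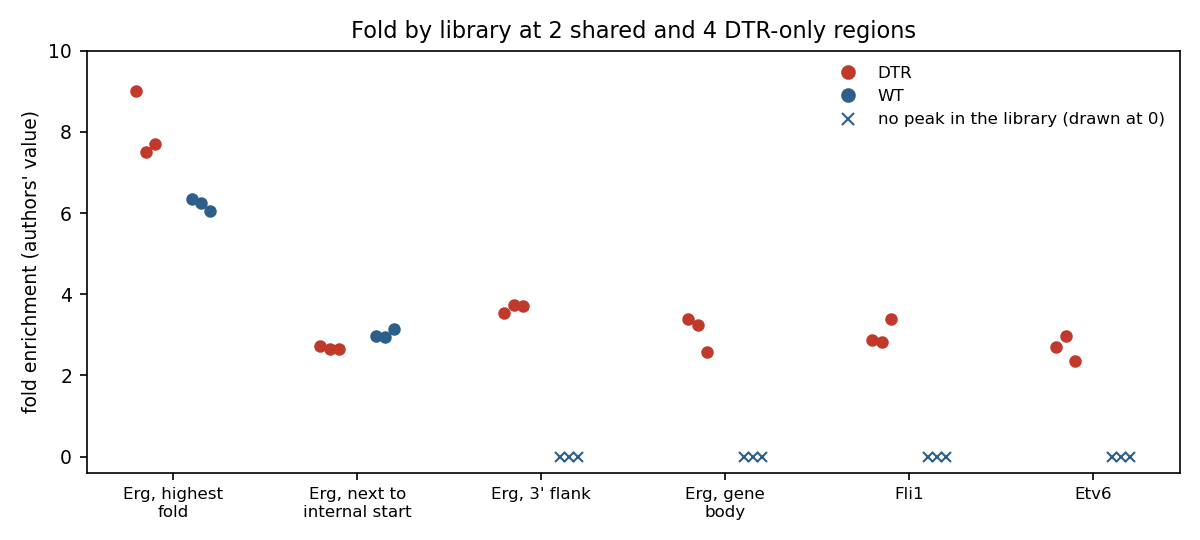
Fold enrichment by library at 2 shared regions of Erg and at the 4 DTR-only regions of Erg, Fli1 and Etv6; points are libraries, DTR in red and WT in blue, and crosses mark libraries without a peak, drawn at 0 (no fold is given for them). The strongest Erg region runs from 7.51 to 9.01 in DTR and from 6.04 to 6.35 in WT.

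Fli1, the megakaryocyte factor, had similar numbers of peaks in both groups. The libraries had 14, 15 and 14 peaks in DTR and 14, 14 and 16 in WT, over 12812, 11590 and 13462 bp and 12534, 11707 and 12614 bp, and the groups overlapped in both measures. Of its 16 regions, 13 had a peak in all libraries. No library had a peak within 1 kb of either end of the gene. The closest region to an end lay 1839 bp inside the end with the higher coordinate (chromosome 9, 32539292 to 32541593), was 2302 bp wide and had mean folds of 4.59 ± 0.112 in DTR and 4.51 ± 0.0879 in WT (SD, n = 3). The widest region (32507492 to 32510214) spanned 2723 bp and held 1 or 2 peaks per library. The strongest (32493542 to 32494206) had folds of 7.38, 9.08 and 8.85 in DTR and 7.97, 7.31 and 7.61 in WT, which overlap.

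One Fli1 region was DTR-only (32529763 to 32530064). Its folds were 2.88, 2.83 and 3.39, above 9.06% to 19.0% of the peaks of the respective list, and the pattern was lost after the lists were reduced to the same length and at a q of at most 1e-05. Of the 13 shared regions, 1 had separated folds, with 3.70, 3.83 and 3.50 in DTR and 4.01, 3.98 and 3.94 in WT (32472325 to 32472766). Separation in that direction was seen at 5.15% of all shared regions, so nothing particular to Fli1 is read from it. Fli1 also had a region with a peak in WT 1 and WT 3 alone (32466573 to 32466938).

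Ets1, the lymphocyte factor, lies next to Fli1 on chromosome 9, 92.8 kb away, and had 18 regions with no group-only one. Its libraries had 15, 14 and 15 peaks in DTR and 13, 14 and 16 in WT. A peak at a gene end was present in 1 library alone, DTR 2, with a fold of 6.37 and a width of 144 bp (32636089 to 32636232), and the nearest region present in all libraries lay 15881 bp inside that end. The strongest region of Ets1 lay in the gene body (32695605 to 32696462), with folds of 9.79, 9.92 and 10.02 in DTR and 9.60, 9.65 and 10.08 in WT. It ranked above 91.1% to 93.8% of the peaks of each list. The widest (32735121 to 32736739) spanned 1619 bp. Of the 13 shared regions, 1 had every WT fold above every DTR fold, at 4.06 ± 0.160 in DTR against 4.50 ± 0.153 in WT (SD, n = 3; 32654393 to 32654697). This direction was seen at 5.15% of all shared regions, so nothing particular to Ets1 is read from it.

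**Figure D4:**
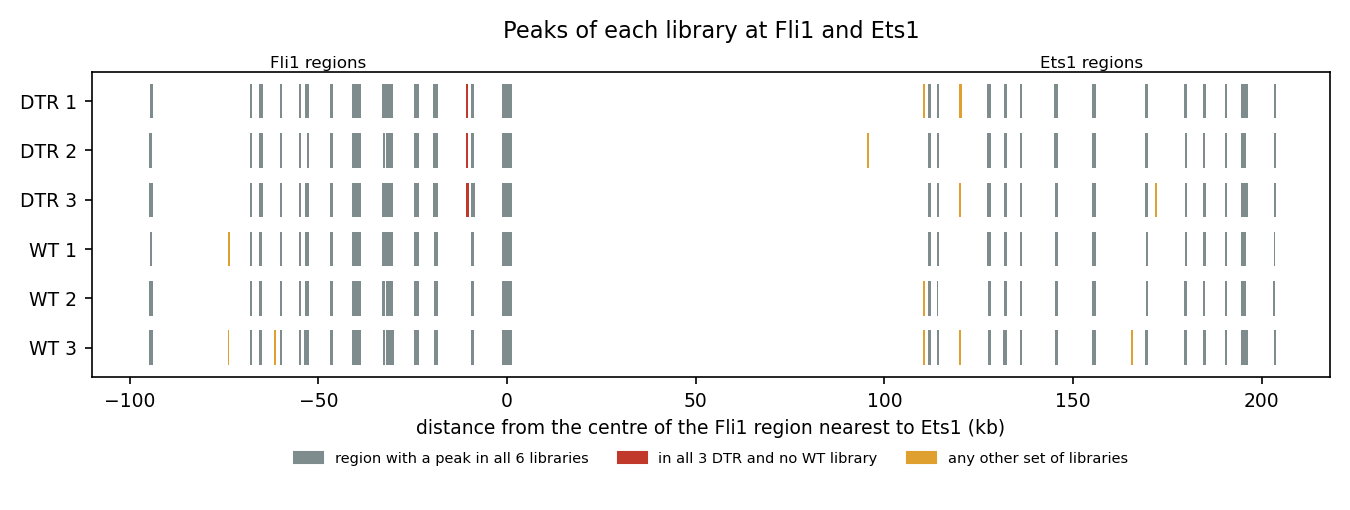
Peaks of each library within 10 kb of Fli1 (left) and Ets1 (right), one row per library, against the distance in kb from the centre of the Fli1 region nearest to Ets1; bars are slightly widened, and peaks between the 2 loci are not drawn. Grey regions run through all 6 rows, the red region is the DTR-only region of Fli1, and the isolated peak left of the other Ets1 regions is in DTR 2 alone.

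Ets2, the MAP kinase target, is the neighbour of Erg on chromosome 16 and had few but strong regions. Of 6 regions, 3 had a peak in all libraries, all 3 with mean folds from 9.26 to 10.1. They lay over the listed start (95701821 to 95703058), 5694 bp downstream of it (95708101 to 95709018) and in the flank beyond the gene (95728589 to 95729407). At the start the folds were 9.65, 9.29 and 9.39 in DTR and 8.63, 8.84 and 9.77 in WT, and the groups overlapped. The other 3 regions were weak and patchy: 2 had peaks in DTR 1, DTR 2 and WT 3, and 1 had a peak in WT 1 alone. Peaks at Ets2 therefore numbered 5, 5 and 3 in DTR and 4, 3 and 5 in WT.

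Etv6, the repressor, was the most densely open of the 8 loci. It had 52 regions, more than 99.95% of loci with a region, and 20.4 regions per 100 kb of locus, against a median of 9.11 over all such loci. The corresponding densities were 10.1 at Erg, 11.3 at Fli1, 12.7 at Ets1, 15.5 at Ets2, 16.5 at Elf1, 9.26 at Elf2 and 2.05 at Gabpa. Peaks at Etv6 numbered 49, 47 and 44 in DTR and 43, 49 and 44 in WT, which overlap. The start lay under a region (chromosome 6, 134034903 to 134036420) with folds of 7.11, 7.11 and 6.94 in DTR and 7.33, 7.0 and 7.27 in WT, which overlap. The strongest region lay 184443 bp downstream (134220143 to 134220952), with folds of 10.4, 9.89 and 10.3 in DTR and 9.98, 9.73 and 11.0 in WT, and the widest (134261548 to 134263545) spanned 1998 bp.

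Etv6 held the fourth DTR-only region of the set, 61302 bp downstream of the start (134097002 to 134097185). It spanned 184 bp, with folds of 2.69, 2.97 and 2.35, above 3.43% to 11.2% of the peaks of its list. It kept the pattern in lists reduced to the same length and lost it at a q of at most 1e-05. A shared region 19721 bp downstream of the start (134055421 to 134055845) had folds of 4.50, 4.52 and 4.34 in DTR and 3.78, 3.51 and 3.88 in WT, a ratio of means of 1.2. Another (134041345 to 134042275) was lower in DTR, at 2.43 ± 0.161 against 2.70 ± 0.122 (SD, n = 3). These were the separated folds among the 39 shared regions, 1 in each direction, beside 10.4% and 5.15% of all shared regions. The median fold over the 39 shared regions of Etv6 was lower in every DTR library, with 4.98, 4.88 and 4.85 against 5.0, 5.22 and 5.0. Etv6 was the 1 of 8 genes with this separation, seen at 4.43% of the 16215 loci with a shared region, while the reverse was seen at 0 of 8 genes and at 10.1% of loci.

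Elf1 and Elf2, broadly expressed relatives, held 0 group-only regions. At Elf1 18 of 20 regions had a peak in all libraries, and the 2 others lacked a peak in WT 1 alone. Peaks numbered 20 in each DTR library and 18, 21 and 21 in WT, while length under peaks was 13460, 12559 and 12821 bp in DTR and 12372, 11715 and 11955 bp in WT. As a share of the covered bases the groups overlapped in length, with 255.9 to 268.7 ppm in DTR and 257.4 to 267.2 ppm in WT. The region over the outer start of Elf1 (chromosome 14, 79480727 to 79482073), which also reaches within 1 kb of an end of Wbp4, had folds between 8.45 and 8.83 in all 6 libraries. The strongest region of the whole set (79587054 to 79587932; folds 11.4 to 11.8) lay in the flank of Elf1, within 1 kb of an end of its neighbour Sugt1, and cannot be assigned to Elf1. Of the 18 shared regions, 1 in the gene body (79541424 to 79542247) was separated, with folds of 6.78, 6.75 and 7.60 in DTR and 6.48, 6.16 and 6.62 in WT. Every DTR fold was above every WT fold at 10.4% of all shared regions. That Elf1 region was no longer separated after each fold was divided by the library's median. The widest Elf1 region (79532269 to 79533962) spanned 1694 bp.

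Elf2 had 9, 10 and 9 peaks in DTR and 8, 9 and 9 in WT. Length under peaks overlapped, with 8416, 8385 and 8410 bp in DTR and 8397, 7814 and 8250 bp in WT. As a share of the covered bases it was lower in every DTR library, with 167.8 to 174.2 ppm against 176.2 to 178.2 ppm in WT. The share of all loci with that pattern was not computed, so nothing is read from it. Both listed starts lay under broad regions, the outer one under a region of 2095 bp (chromosome 3, 51339801 to 51341895; folds 4.92 to 5.39) and the internal one under a region of 1738 bp (51276014 to 51277751). The internal start differed little among libraries, with folds of 5.27, 5.12 and 5.05 in DTR and 5.11, 5.05 and 5.11 in WT, again overlapping. The strongest region (51289048 to 51289799) had mean folds of 10.2 ± 0.967 in DTR and 10.1 ± 0.765 in WT (SD, n = 3). Elf2 held 0 group-only regions and 0 shared regions with separated folds.

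Gabpa, the housekeeping factor, had a single region. It covered the promoter window with the CCGGAA match and spanned 1432 bp (chromosome 16, 84834481 to 84835912), within 1 kb of an end of Atp5j, a subunit gene of ATP synthase, so that its openness cannot be assigned to 1 of the genes. Folds were 7.12, 7.33 and 7.23 in DTR and 7.14, 7.36 and 7.30 in WT, and the width under peaks ranged from 1270 to 1432 bp.

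Over all members, 4 of 148 regions were DTR-only and 0 were WT-only. That is 2.70%, against 0.820% of all regions that were DTR-only and 0.0992% that were WT-only. At least 1 DTR-only region was present at 3 of the 8 loci and at 3.26% of all loci with a region, and a WT-only region at 0 of 8 and at 0.493%. Loci with more regions have more chances to hold one: of 1882 loci with at least 10 regions 9.30% did, and 6 of the 8 members are of that kind. Since Erg and Fli1 were chosen for such regions, these shares are given as a description.

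Fold at the shared regions was close in the groups. The median over the 113 shared regions was 4.96, 4.97 and 4.90 in DTR and 4.99, 5.01 and 5.0 in WT, so every WT median lay above every DTR median, and the means differed by −0.0548. Mean fold was higher in DTR at 48 of the 113 regions (42.5%), against 55.2% of all 68712 shared regions, and the ratio of means ran from 0.810 to 1.3 with a median of 0.994, against 1.01 over all. Every DTR fold was above every WT fold at 3 regions (2.65%; 10.4% of all shared regions), and every WT fold above every DTR fold at 5 (4.42%; 5.15%). After each fold was divided by its library's median over shared regions, the numbers were 2 and 16, or 1.77% and 14.2%, against 6.78% and 11.2% of all. The size of the split between higher and lower folds thus depends on the scaling. Regions higher in WT outnumbered those higher in DTR with both, and the split is not called a change.

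**Figure D5:**
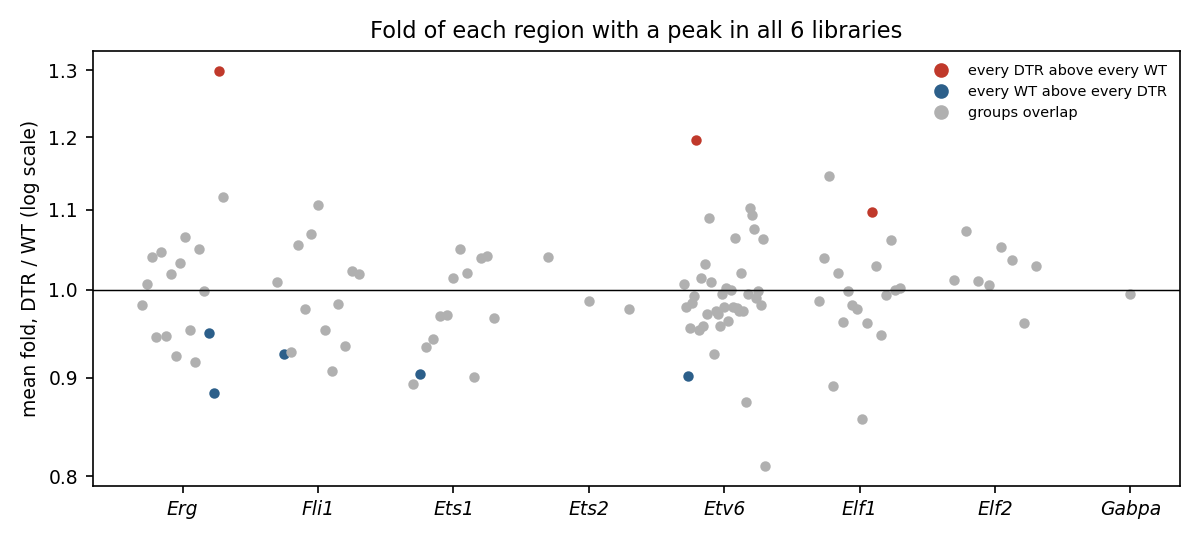
Ratio of mean fold, DTR over WT, on a log axis, for each region with a peak in all 6 libraries, ordered by position within each gene. Red points have every DTR value above every WT value (3 regions) and blue points the reverse (5 regions); ratios run from 0.810 to 1.3, and the highest is the Erg region upstream of the most internal start.

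The groups were separated in width at more regions than in fold. The bases under peaks were higher in every DTR than in every WT library at 19 of the 113 shared regions (16.8%; 13.0% of all shared regions) and lower at 4 (3.54%; 1.87%). Etv6 had 7 of the 19, Elf1 4, Fli1 3, Erg 2, Elf2 2 and Ets1 1. Of these 19 wider regions, 14 had a lower mean fold in DTR, and 3 of the 4 narrower ones a higher mean fold. Over all shared regions the corresponding numbers were 4983 of 8919 and 897 of 1284. DTR lists were also longer and covered more bases in total, and the part of list length in these widths was not tested.

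The other genes of the family and its known partners were described by the same counts. Of 26 ETS family genes, 20 had a gene-end peak in all 6 libraries and 4 in none (Fli1, Elf5, Spib and Spdef). Over all protein-coding genes, 59.0% had such a peak in all 6 libraries. Outside the 8 members, the family held 0 group-only regions. Among 13 partners of ERG and FLI1 in blood progenitors and of GABPA, 2 held a DTR-only region, or 2 of the 117 regions at their loci, against the 3.26% of loci and 0.820% of regions given above: Runx3 (chromosome 4, 135114828 to 135114988; folds 3.37, 3.21 and 2.53) and Gata1, the erythroid and megakaryocyte factor (chromosome X, 7963870 to 7964085; folds 2.77, 2.55 and 3.50). No WT library had a peak at the Gata1 locus, and DTR 1, DTR 2 and DTR 3 had 2, 1 and 1. Of all loci with a region, 2.99% had more peaks in every DTR than in every WT library. The remaining partners Runx1, Cbfb, Gata2, Tal1, Lyl1, Lmo2, Gfi1b, Zfpm1, Ldb1, Gabpb1 and Gabpb2 had 0 group-only regions.

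Covered length at Erg and Fli1 was also set against that of other genes across the libraries. Over the 6 libraries, covered length as a share of the list was 254.2, 251.2 and 230.1 ppm for Erg in DTR and 214.8, 234.8 and 226.7 in WT. Among 7156 genes with at least 5 regions, Rmnd5a (Pearson r = 0.999), Rnf214 (0.995) and Kri1 (0.977) followed it most closely. For Fli1 they were Trappc9 (0.971), Susd1 (0.968) and Pom121 (0.965). Of the 7156 genes, 34 had a correlation above 0.9 with Erg and 32 with Fli1. The named genes are the highest of 7156 over 6 libraries, so the values are a description and nothing is read from them.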

How the data were processed

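ATAC-seq peaks of 3 DTR and 3 WT libraries were used, grouped and numbered by their titles. Libraries were made with Tn5 from 50000 cells opened with digitonin and sequenced from both ends, per the labels' protocols. The tools were MACS2, fastp, Bowtie and Bowtie2 (2.4.4), per the submitters' processing notes. The sources used here give neither their parameters nor the genome build, nor whether reads were shifted for the transposase offset. The authors deposited 1 list of broad peaks per library, with a score, a fold enrichment (a ratio) and the −log10 of p and q. For 99.9% of peaks the deposited score is the −log10 q times 10 without its decimals, and it was not used further. Fold and −log10 are values of the authors' peak calling.

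Overlapping or adjoining peaks of the 6 lists were joined into regions, and the fold of a region in a library is that of its highest peak. Shared regions have a peak in all 6 libraries, and DTR-only regions one in all 3 DTR and in 0 WT libraries. Coordinates are those of the lists, counted from 1. The GRCm38.p6 tables were taken to match, since 42.5% of promoter windows lay under a shared region, against 4.98% and 5.24% after moving them by 5000 and 20000 bp. Groups are called separated when their ranges do not overlap. The share of all loci or regions separated is given where it was computed. It was not computed for values per list at single loci or for sums over marker loci. The merging and calling were run on simulated data with seeded regions, as a check of the code. Seeded regions were absent from every WT library or differed more in fold than any shared region here. Detection of weaker differences was therefore not tested. Python 3.11.15 and pandas 2.3.3 were used.

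The members, the gene lists and the measures were chosen with earlier results of these data known. Text names the members, their group-only regions, the strongest, widest and start regions of each, and separated regions; the regions of Elf1, Etv6 and Ets1 with separated folds, the middle Erg start and the Fli1 region of WT 1 and WT 3 were added after their values were seen. The other named genes come from lists of the ETS family, partners and cell type markers; a list of megakaryocyte targets is not reported here. Alternatives were lists of equal length, a q of at most 1e-05, other loci, overlaps and joins, other folds and scalings, and each library left out.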

Additional observations from a re-analysis of the deposited data

How the results depend on the processing

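Recomputing 7 results gave 99 values in 19 settings, of which 69 stayed the same in direction and within 1 SD, or within 1.5 times of a count, 28 moved further and 2 reversed. The settings by share of the list, of regions of at least 200 bp and of bases in place of fold were chosen after seeing the data. The difference in peaks over the 8 loci, 5.67, turned to −3.33 with lists of equal length and to −0.00874 per 10000 peaks; both settings fix or divide by list length. The difference in covered length, 6063 bp, was 2263 bp with lists of equal length and 0.905 ppm of covered bases. Of 4 DTR-only regions, 1 was left at a q of at most 1e-05. There was no (0) WT-only region, but 1 with lists of equal length (in an Erg region shared by all libraries in the full lists), with 50 kb windows, and with 2 of 3 libraries required. The difference in median fold, −0.0548, was −0.105 with lists of equal length, −0.130 at a q of at most 1e-05 and −0.108 with 50 kb windows. After division by the library's median it was −0.0274 in units of that median. This value cannot be set against the others in size, and its place among the 28 that moved compares unlike units. Shared regions with every WT fold above every DTR fold numbered 5, and 16 after that division, 3 with lists of equal length and 3 at a q of at most 1e-05. Bases in place of fold gave 19 regions with every DTR value above every WT value, against 3. The cause of these differences was not tested.

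Leaving out 1 library loosens the definition of group-only and separated regions. There were then 4 to 5 DTR-only and 0 to 1 WT-only regions (1 without WT 2), and regions with higher folds in DTR numbered 7 to 12 and in WT 9 to 13. The difference in peaks ranged from 2.33 (without WT 1) to 8.33, that in covered length from 4168 to 7752 bp and that in median fold from −0.0682 to −0.0216 (without DTR 1). Libraries of the same number did not deviate together at the 8 loci (correlations −0.696, 0.302 and 0.0445), and with a replicate block the differences of 5.67 peaks, 6063 bp and −0.0548 were equal by construction. Depth is unknown, which limits every absent peak.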

Other observations

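Erg and Ets2 on chromosome 16, and Fli1 and Ets1 on chromosome 9, are neighbouring pairs of related genes, and the DNA between them was open as well. The 72.8 kb between the loci of Fli1 and Ets1 contain no other protein-coding gene and held 8 regions, 5 of them with a peak in all libraries, with 7, 8 and 6 peaks in DTR and 6 in each WT library. The 95.8 kb between the loci of Erg and Ets2 likewise contain no protein-coding gene and held 8 regions, 6 of them shared, with 6, 7 and 7 peaks in DTR and 6, 6 and 8 in WT. Neither interval held a group-only region.

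One shared region between Fli1 and Ets1 (chromosome 9, 32581943 to 32582526) had folds of 8.02, 8.32 and 7.87 in DTR and 6.34, 6.13 and 6.03 in WT, and every DTR value lay above every WT value. The groups overlapped at the other 4 shared regions of that interval. Over all shared regions, 10.4% had every DTR fold above every WT fold, so nothing particular to the interval is read from this region. The nearest on either side, at 32570717 to 32570944 and at 32589890 to 32590214, had folds of 5.31 to 7.19 and 6.39 to 7.04 in DTR and of 4.85 to 5.53 and 4.64 to 7.82 in WT. Between Erg and Ets2, 0 of the 6 shared regions were separated, and the strongest (chromosome 16, 95611978 to 95612580) had folds from 7.14 to 7.65 over all libraries. These intervals were examined after the values at the genes were known.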
